A study of Mus musculus with 48 samples.

Results

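Wt1, Tnnt2, Ttn, Rprm, Ccl28, Dsg1c and Fam196b are 7 of the 48795 genes counted in RNA from the mouse striatum, chosen by their low levels in wild type mice and their steep rise in mice carrying the Q140 allele. Q140 mice carry 1 Htt allele with a knocked-in stretch of extra CAG repeats and model Huntington's disease. Msh3 encodes a mismatch repair protein that binds small loops in DNA. The 48 libraries came from 6-month-old mice on a C57BL/6 background and fell into 6 groups: Q140 with an intact Msh3 label (n = 8), Q140 Msh3+/- (n = 8), Q140 Msh3-/- (n = 8), wild type (n = 7), Msh3+/- (n = 9) and Msh3-/- (n = 8). The Q140 groups held 4 female and 4 male libraries each, as did Msh3-/-. Wild type held 3 females and 4 males, and Msh3+/- held 5 females and 4 males. The labels do not say that each library is a separate mouse, so the p-values measure the spread between libraries. Libraries are named below by group, sex letter and number.

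The striatum consists mostly of medium spiny neurons, inhibitory projection neurons that are the most vulnerable cells in Huntington's disease. Several of the 7 genes have their known work in other tissues. Wt1 is a zinc finger transcription factor of the developing kidney, gonad and mesothelium, Tnnt2 is the troponin T of heart muscle, and Ttn encodes titin, the molecular spring of the sarcomere. Ccl28 is a chemokine of mucosal epithelia that signals through Ccr10 and Ccr3, and Dsg1c encodes a desmoglein, a cadherin of the desmosomes that join epithelial cells. Rprm encodes reprimo, a p53-regulated mediator of cell cycle arrest, and Fam196b, also known as Insyn2b, is related to a protein of inhibitory synapses. In a bulk sample, fewer cells of a type and less RNA per cell cannot be told apart.

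Library totals ran from 33.7 to 52.8 M counts with a median of 45 M, and 19975 genes had enough reads to be tested, all 7 among them, Wt1 only through its reads in the Q140 group. Msh3 reads went opposite to what a loss of transcript would give: 111 to 135 CPM (counts relative to the library size as scaled by TMM) in libraries labelled Msh3-/-, 68.2 to 85.4 in those labelled Msh3+/- and 29.1 to 33.2 in those with no Msh3 mutation on the label. The 3 ranges did not overlap. Markers of medium spiny neurons were high in every library (all 12 had a median of at least 1 CPM in each group), and their mean was lower in the Q140 group, at 9.48 ± 0.21 log2 CPM (SD, n = 8), than in Q140 Msh3+/- (9.78 ± 0.10, n = 8), Q140 Msh3-/- (9.94 ± 0.09, n = 8) and wild type (10.14 ± 0.07, n = 7). The Msh3+/- and Msh3-/- groups stood at 10.18 ± 0.07 (n = 9) and 10.16 ± 0.04 (n = 8). Some libraries stood apart in markers of neighbouring tissue. Q140 Msh3+/- F1 had 4320 CPM of summed choroid plexus and ependymal markers, against a median of 54.1 CPM over the 48 libraries, and Msh3+/- F5 had 181 CPM of summed cortical neuron markers, against a median of 48.3 CPM. Results resting on these 2 libraries are given below with and without them. Wild type M2 and M1 had 638 and 265 CPM of choroid plexus and ependymal markers; without them the log2 fold changes of the members in Q140 over wild type ran from 0.92 (Fam196b) to 3.56 (Wt1), and Dsg1c kept its call between the sexes (0.86, adjusted p = 1.36e-05 by edgeR).

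The rise in Q140 over wild type chose these genes, so it is given as a description. Genes with an average of at least 0 log2 CPM were ranked by log2 fold change in Q140 over wild type. Genes with clone-type names, such as those in Gm or Rik, were left out. Among these 13373 genes, Ccl28 stood at rank 2, Tnnt2 at 4, Dsg1c at 5, Ttn at 6, Rprm at 7 and Fam196b at 15. Wt1 fell below that level of expression, at an average of -1.82 log2 CPM. The last of these, Fam196b, had a log2 fold change of 0.88, and Abhd1, at rank 17 and not a member, had 0.86. Genes of higher rank that are not members include Tmem181c-ps at rank 1 (3.10), Sfmbt2 (1.27), Tmc3 (1.11) and Dsg2 (1.11). Among all 19975 genes tested, Wt1 stood at rank 4, Ccl28 at 27, Tnnt2 at 30 and Dsg1c at 34. Ttn stood at 37 there, Rprm at 41 and Fam196b at 117. In Q140 against wild type, 4 of the 7 genes, Tnnt2, Ttn, Rprm and Fam196b, had every Q140 library above every wild type library, as had 1.68% of all genes; that contrast was used in the choice. The phrase "switched on" does not suit the other 6 genes, each of which had between 16 and 312 reads in every wild type library. Wt1 comes closer to it, but had 0 to 8 reads in the wild type libraries, with a median of 4, and none in 1 Q140 library. Compared per length of transcript, the mean levels in Q140 ran from 8.21 FPKM (fragments per kilobase of gene, scaled to the size of the library) for Rprm through 1.71 for Fam196b, 1.37 for Dsg1c, 1.07 for Tnnt2, 0.908 for Ccl28 and 0.185 for Wt1 to 0.0232 for Ttn. The SDs of Fam196b (0.324), Dsg1c (0.645), Tnnt2 (0.147) and Ccl28 (0.282) were such that neighbours in this order overlapped. The wild type means ran in the same order, at 3.56 FPKM for Rprm, 0.88 for Fam196b, 0.563 for Dsg1c, 0.435 for Tnnt2, 0.368 for Ccl28, 0.014 for Wt1 and 0.00979 for Ttn. The Q140 group had the highest mean CPM of the 6 groups for every member. Q140 Msh3+/- came second for Tnnt2, Ttn, Rprm, Dsg1c and Fam196b, and Q140 Msh3-/- for Ccl28. For Wt1 wild type came second, at 0.0875 CPM, above Q140 Msh3-/- (0.0693) and Q140 Msh3+/- (0.0675), all from few reads. The 3 groups without Q140 overlapped one another in every member. As a description, the log2 fold change of Ccl28 over wild type was 0.52 (SE 0.36) in Msh3+/- and 0.44 (SE 0.37) in Msh3-/-. That of Wt1 was -0.67 (SE 0.72) and -0.73 (SE 0.74), and the other members lay between -0.26 (Rprm) and 0.23 (Fam196b), both in Msh3-/-.

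Promoter windows from RefSeq (GRCm38.p6), 250 bases before to 50 bases after a transcript's start, are given for 4 of the 7 genes: Ccl28, Rprm, Tnnt2 and Ttn. No window was found for Wt1 or Fam196b, and Dsg1c was left out. All 7 genes, not only these 4, were higher in Q140 than in wild type. Capitals mark matches, on either strand, to the motifs searched: an E-box (CANNTG), an Sp1-type GC box (GGGCGG) and a Mef2-type site (CTA and TAG, 4 bases apart). No 2 matches in capitals overlap in these windows.
Ttn, chr2:76982498-76982797, minus strand: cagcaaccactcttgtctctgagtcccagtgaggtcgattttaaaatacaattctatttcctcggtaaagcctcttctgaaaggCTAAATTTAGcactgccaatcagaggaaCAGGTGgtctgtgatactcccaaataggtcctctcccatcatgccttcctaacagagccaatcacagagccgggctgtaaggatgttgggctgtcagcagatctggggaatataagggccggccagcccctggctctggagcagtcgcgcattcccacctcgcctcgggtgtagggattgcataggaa
Tnnt2, chr1:135836084-135836383, plus strand: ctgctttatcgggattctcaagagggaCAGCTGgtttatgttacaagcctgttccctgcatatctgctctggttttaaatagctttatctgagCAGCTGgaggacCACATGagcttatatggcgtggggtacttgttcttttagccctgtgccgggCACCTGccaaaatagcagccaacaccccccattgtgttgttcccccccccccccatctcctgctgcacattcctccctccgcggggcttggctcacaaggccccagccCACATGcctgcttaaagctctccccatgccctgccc
Tnnt2, second start, chr1:135836739-135837038, plus strand: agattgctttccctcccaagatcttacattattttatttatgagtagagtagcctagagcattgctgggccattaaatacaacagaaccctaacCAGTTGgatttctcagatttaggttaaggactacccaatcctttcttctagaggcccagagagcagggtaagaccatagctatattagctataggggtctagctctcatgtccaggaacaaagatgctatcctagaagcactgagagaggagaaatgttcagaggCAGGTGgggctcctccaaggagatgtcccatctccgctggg
Rprm, chr2:54085503-54085802, minus strand: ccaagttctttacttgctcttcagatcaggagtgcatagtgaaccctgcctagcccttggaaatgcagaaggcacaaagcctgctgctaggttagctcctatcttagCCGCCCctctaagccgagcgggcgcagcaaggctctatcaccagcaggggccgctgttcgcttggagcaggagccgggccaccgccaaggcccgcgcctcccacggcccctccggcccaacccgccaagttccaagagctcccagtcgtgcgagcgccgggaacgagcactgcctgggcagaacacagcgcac
Ccl28, chr13:119623569-119623868, plus strand: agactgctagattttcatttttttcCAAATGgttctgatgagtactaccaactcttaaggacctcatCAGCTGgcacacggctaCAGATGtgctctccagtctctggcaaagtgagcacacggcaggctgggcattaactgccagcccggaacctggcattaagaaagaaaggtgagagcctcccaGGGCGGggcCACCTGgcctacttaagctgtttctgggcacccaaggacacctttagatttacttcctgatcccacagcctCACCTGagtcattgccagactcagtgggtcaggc
The Ttn window holds a Mef2-type match, a motif of muscle and neuronal enhancers present in 3.69% of the 32851 promoter windows in the table, and 1 E-box. The first Tnnt2 window holds 5 E-boxes and the second holds 2, a motif found in 72.3% of windows. Rprm has 19 CpG dinucleotides, more than 71.9% of windows, and a GC box, which 35.7% of windows carry and Ccl28 also has, beside 5 E-boxes. Ttn has 8 CpG, the Tnnt2 windows have 5 and 1, and Ccl28 has 4, against a median of 7 over all windows. None of the 5 windows holds the letters TATAAA (13.6% of windows), the cyclic AMP response element TGACGTCA (1.79%) or the Egr and Wt1 type site GCGNGGGCG (5.55%). No motif searched was found in all 5 windows.

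The genes lie on 5 chromosomes of the GRCm38 build, in GENCODE M21. Wt1 (chr2:105126529-105173616, plus strand), Ttn (chr2:76703980-76982547, minus strand) and Rprm (chr2:54084093-54085552, minus strand, a gene of 1.46 kb) share a chromosome but are separated by many other genes. Tnnt2 lies at chr1:135836354-135852260, Ccl28 at chr13:119623819-119654359, Dsg1c at chr18:20247340-20285031 and Fam196b at chr11:34314822-34422640, all on the plus strand. Ccl28 is on the chromosome of Msh3, 27.3 Mb away from it. Ttn overlaps the antisense gene Gm13938, which had at most 2 reads in a library. Fam196b overlaps the opposite-strand gene Dock2, but no exons are shared. Dsg1c has close paralogs in the desmoglein cluster. Few reads were assigned to Dsg1a and Dsg1b, at means of 0.0405 and 0.0524 CPM over all libraries. Reads matching more than 1 copy may still be missing or misassigned, so the level of Dsg1c is uncertain.

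Wt1 had very few reads outside the Q140 group. In the 8 Q140 libraries it had 77, 98, 18 and 46 reads in females F1 to F4 and 95, 34, 29 and 0 reads in males M1 to M4, a total of 397. The 40 libraries of the other groups had between 0 and 8 reads each. Their totals were 26 in Q140 Msh3+/-, 24 in Q140 Msh3-/-, 28 in wild type, 21 in Msh3+/- and 18 in Msh3-/-.

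**Figure D1:**
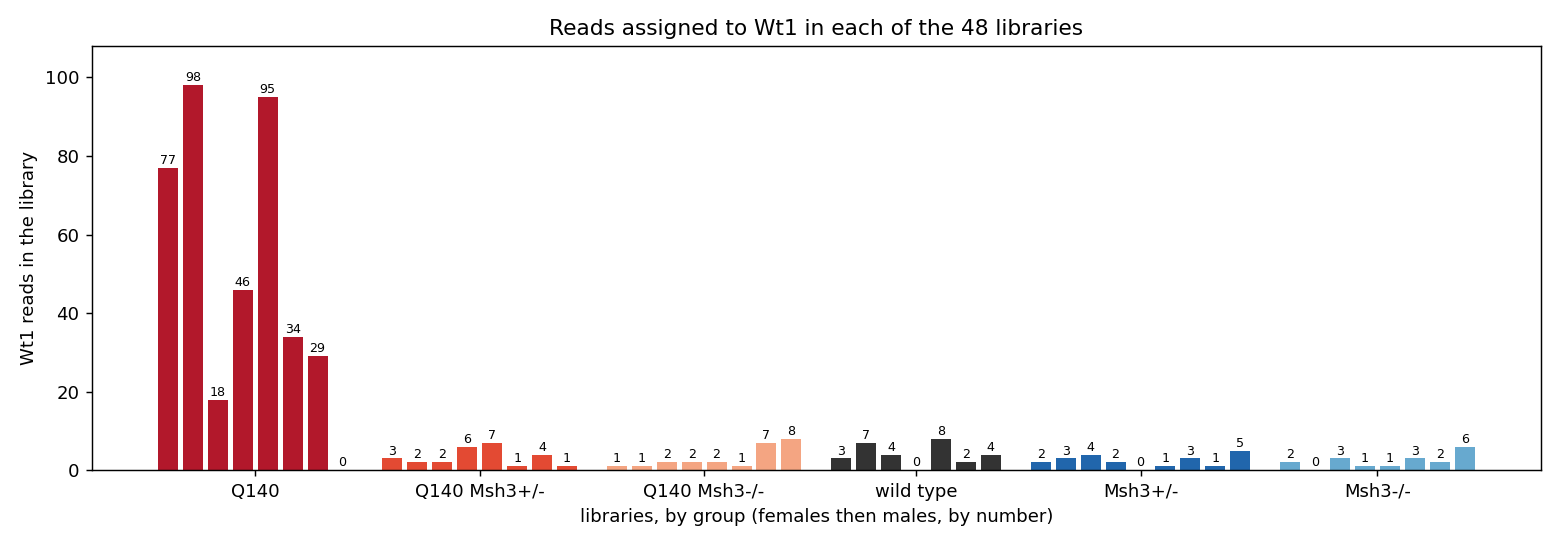
Reads assigned to Wt1 in each library (vertical axis, read count; horizontal axis, libraries by group, females before males). Of the 8 Q140 libraries, 7 carry 18 to 98 reads and 1 carries 0, while the 40 other libraries carry 0 to 8.

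In CPM, Wt1 ran from 0 to 2.14 in Q140 with a median of 0.876, against 0 to 0.167 in wild type with a median of 0.083. Of the 8 Q140 libraries, 7 were above the highest wild type library and 1, Q140 M4, had no read, which allows up to 0.0585 CPM by counting error alone. The log2 fold change of Q140 over wild type was 3.59 (SE 0.51). Q140 M4 also had the highest level of medium spiny neuron markers of its group, 9.83 log2 CPM, and Q140 F3, with the next fewest Wt1 reads, had the second highest, 9.72. Q140 M1, F1 and F2, with 95, 77 and 98 reads, had the 3 lowest, 9.23, 9.25 and 9.37.

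On the Msh3 mutant backgrounds Wt1 had too few reads for a test to be read, and its values are given as a description. Q140 Msh3+/- ran from 0.0205 to 0.161 CPM, against 0 to 0.127 CPM in Msh3+/-, with a log2 fold change of 0.30 (SE 0.72). Q140 Msh3-/- ran from 0.0214 to 0.19 CPM, against 0 to 0.14 CPM in Msh3-/-, with a log2 fold change of 0.42 (SE 0.76). All of these groups overlapped. Set against the Q140 group itself, the log2 fold change was -3.95 (SE 0.50) in Q140 Msh3+/- and -3.90 (SE 0.51) in Q140 Msh3-/-. These last values share the Q140 libraries that chose the gene and carry no test. Beside this, the level of medium spiny neuron markers differed between the 3 Q140 groups as given above, and its part in the level of Wt1 was not tested.

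The comparisons that the choice of genes did not use were Q140 Msh3+/- against Msh3+/- and Q140 Msh3-/- against Msh3-/-. Differences were tested with edgeR's quasi-likelihood test with Benjamini-Hochberg adjustment over all 19975 genes, and "rose" or "fell" marks an adjusted p under 0.05. In Q140 Msh3+/- against Msh3+/-, 5 of the 7 genes rose, Tnnt2, Ttn, Rprm, Dsg1c and Fam196b, where 2.96% of all genes did and 6.45% were called in either direction. Ccl28 did not pass, and Wt1 had too few reads there. The median log2 fold change of the 7, Wt1 included, was 0.62, and that of all genes was 0.00. In Q140 Msh3-/- against Msh3-/-, none of the 7 was called, where 0.0751% of all genes were, and Wt1 again had too few reads. Their median there was 0.42, beside 0.00 for all genes, with 1342 of all genes at an unadjusted p under 0.05. Calls were thus scarce in that comparison for the whole table. No member had all its Q140 libraries above all controls on either mutant background, which 0.185% of genes did in Q140 Msh3+/- against Msh3+/- and 0.02% in Q140 Msh3-/- against Msh3-/-.

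**Figure D2:**
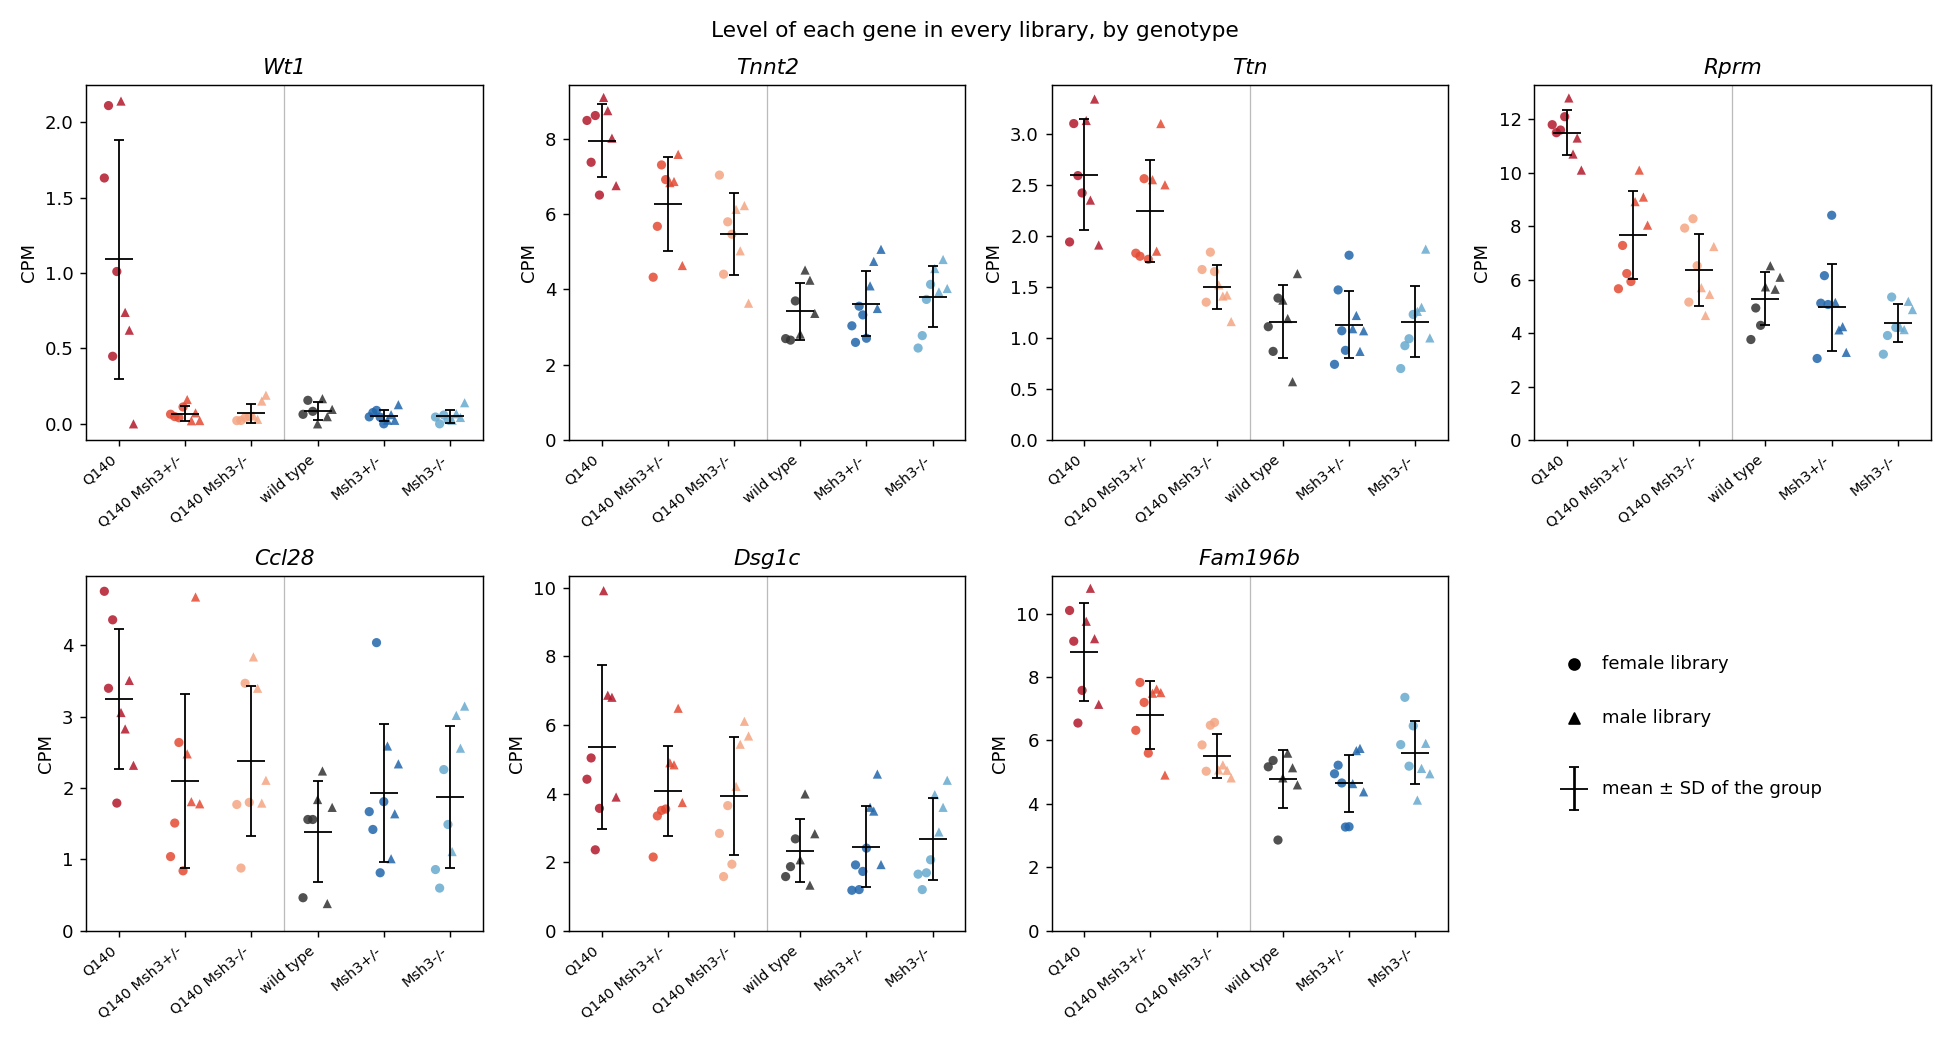
Level of each gene in CPM (vertical axes) in every library by group, females as circles and males as triangles, with the mean and SD. The Q140 group has the highest mean in all 7 panels, and Wt1 stands near 0 in each other group.

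Tnnt2 binds tropomyosin and anchors the troponin complex to the thin filament of heart muscle. It ran from 6.5 to 9.09 CPM in Q140 with a median of 8.24, against 2.65 to 4.51 CPM in wild type with a median of 3.36. On the heterozygous background it ran from 4.32 to 7.58 CPM in Q140 Msh3+/- with a median of 6.84, against 2.59 to 5.06 CPM in Msh3+/- with a median of 3.49. On the homozygous background it ran from 3.63 to 7.03 CPM in Q140 Msh3-/- with a median of 5.62, against 2.44 to 4.79 CPM in Msh3-/- with a median of 3.98. Q140 lay wholly above wild type, and on each mutant background 6 of 8 Q140 libraries lay above every library without Q140. The log2 fold change was 1.23 (SE 0.14) in Q140 over wild type and 0.79 (SE 0.13, adjusted p = 6.1e-05) in Q140 Msh3+/- over Msh3+/-. In Q140 Msh3-/- over Msh3-/- it was 0.54 (SE 0.13), with an adjusted p of 0.15 by edgeR. Of the 7 genes Tnnt2 had the smallest unadjusted p in that comparison, 0.000211. DESeq2 called it there (adjusted p = 0.0438), as did edgeR without Q140 Msh3-/- M4, the lowest library of its group (adjusted p = 0.0302). It was not called in 13 of 14 alternative settings, nor in 15 of 16 fits that left out 1 library. The adjusted p by edgeR reached 0.277 in the settings and 0.373 in those fits.

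Ttn runs from the Z-disc towards the middle of the sarcomere and sets its passive stiffness. Its levels ran from 1.91 to 3.34 CPM in Q140 with a median of 2.51, against 0.571 to 1.63 CPM in wild type with a median of 1.19. Q140 Msh3+/- libraries ran from 1.77 to 3.1 CPM with a median of 2.17, against 0.741 to 1.81 CPM in Msh3+/- with a median of 1.07. Q140 Msh3-/- libraries ran from 1.16 to 1.84 CPM with a median of 1.47, against 0.7 to 1.87 CPM in Msh3-/- with a median of 1.12. The Q140 and wild type ranges did not meet, 6 of 8 Q140 Msh3+/- libraries were above all of Msh3+/-, and no Q140 Msh3-/- library was above the highest Msh3-/- library. The log2 fold change was 1.16 (SE 0.18) in Q140 over wild type, 0.98 (SE 0.17, adjusted p = 0.000117) in Q140 Msh3+/- over Msh3+/- and 0.38 (SE 0.18, adjusted p = 0.694) in Q140 Msh3-/- over Msh3-/-. Among the 5 genes that rose with Q140 on the heterozygous background, Ttn had the largest log2 fold change. Set against Q140 Msh3+/-, the Q140 Msh3-/- group was lower by a log2 fold change of -0.57 (SE 0.17, unadjusted p = 0.00161, adjusted p = 0.382 by edgeR), which did not pass the test.

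Rprm, an intronless gene that arrests cells at the G2 stage when overexpressed, had the tightest Q140 group of the 7, with a coefficient of variation of 7.25%. It ran from 10.1 to 12.8 CPM in Q140 with a median of 11.6, against 3.76 to 6.52 CPM in wild type with a median of 5.64. Levels in Q140 Msh3+/- ran from 5.66 to 10.1 CPM with a median of 7.66, against 3.05 to 8.41 CPM in Msh3+/- with a median of 5.07. Those in Q140 Msh3-/- ran from 4.66 to 8.28 CPM with a median of 6.11, against 3.21 to 5.35 CPM in Msh3-/- with a median of 4.21. Q140 stood clear of wild type, while on the mutant backgrounds 3 of 8 Q140 Msh3+/- libraries and 6 of 8 Q140 Msh3-/- libraries were above every library of their control. The highest Msh3+/- library, at 8.41 CPM, was F5, the library with the most cortical neuron markers. The log2 fold change was 1.13 (SE 0.15) in Q140 over wild type, 0.62 (SE 0.14, adjusted p = 0.00499) in Q140 Msh3+/- over Msh3+/- and 0.54 (SE 0.15, adjusted p = 0.261) in Q140 Msh3-/- over Msh3-/-. Without Msh3+/- F5 and Q140 Msh3+/- F1, the value for Q140 Msh3+/- over Msh3+/- was 0.80 (adjusted p = 9.6e-05 by edgeR). With only the libraries of the groups compared in the fit, it was 0.62 with an adjusted p of 0.0701.

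Fam196b was the member with the smallest log2 fold change in Q140 over wild type, 0.88 (SE 0.13). It ran from 6.55 to 10.8 CPM in Q140 with a median of 9.17, against 2.86 to 5.6 CPM in wild type with a median of 5.14. In Q140 Msh3+/- it ran from 4.91 to 7.83 CPM with a median of 7.35, against 3.27 to 5.75 CPM in Msh3+/- with a median of 4.66. In Q140 Msh3-/- it ran from 4.82 to 6.57 CPM with a median of 5.15, against 4.12 to 7.36 CPM in Msh3-/- with a median of 5.53. The Q140 range lay above that of wild type, 6 of 8 Q140 Msh3+/- libraries lay above all of Msh3+/-, and no Q140 Msh3-/- library lay above the highest Msh3-/- library. Its log2 fold change was 0.55 (SE 0.12, adjusted p = 0.00292) in Q140 Msh3+/- over Msh3+/- and -0.02 (SE 0.13, adjusted p = 0.99) in Q140 Msh3-/- over Msh3-/-. The 95% interval of the second ran from -0.28 to 0.23. The difference between these 2 effects, the effect on Msh3-/- minus that on Msh3+/-, was -0.57 (SE 0.17, unadjusted p = 0.00196), and it did not pass adjustment over all genes (adjusted p = 0.756).

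Dsg1c varied widely within every group. It ran from 2.36 to 9.92 CPM in Q140 with a median of 4.73, against 1.33 to 3.99 CPM in wild type with a median of 2.07. Q140 Msh3+/- ran from 2.15 to 6.49 CPM with a median of 3.64, against 1.18 to 4.57 CPM in Msh3+/- with a median of 1.93. Q140 Msh3-/- ran from 1.58 to 6.11 CPM with a median of 3.93, against 1.2 to 4.39 CPM in Msh3-/- with a median of 2.47. All 3 pairs overlapped, with 5, 3 and 3 of 8 Q140 libraries above the highest library of their control. The log2 fold change was 1.20 (SE 0.22) in Q140 over wild type, 0.73 (SE 0.20, adjusted p = 0.0215) in Q140 Msh3+/- over Msh3+/- and 0.56 (SE 0.21, adjusted p = 0.595) in Q140 Msh3-/- over Msh3-/-. The call in Q140 Msh3+/- was lost without sex in the model, at the same log2 fold change of 0.73 (adjusted p = 0.155), and without Q140 Msh3+/- M3, the library with the highest level (log2 fold change 0.67, adjusted p = 0.0524).

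Dsg1c also differed by sex. It was 0.86 log2 units higher in males than in females over all 6 groups (SE 0.12, adjusted p = 7.37e-06 by edgeR), and it was the only member called between the sexes, where 2.93% of all genes were. In Q140 it averaged 6.87 ± 2.46 CPM in males and 3.85 ± 1.16 CPM in females (SD, n = 4 each). In Q140 Msh3-/- it averaged 5.36 ± 0.815 CPM in males and 2.5 ± 0.934 CPM in females (SD, n = 4 each), with no overlap of the sexes. In Q140 Msh3+/- it averaged 4.99 ± 1.13 CPM in males and 3.14 ± 0.666 CPM in females (SD, n = 4 each), also without overlap. The male mean was thus above the female mean with each Q140 genotype. In Msh3-/- it averaged 3.71 ± 0.641 CPM in males and 1.65 ± 0.357 CPM in females (SD, n = 4 each), again without overlap. The male mean was above the female mean in all 6 groups, with the narrowest gap in wild type, 2.56 ± 1.13 CPM in 4 males and 2.04 ± 0.569 CPM in 3 females. In Q140, Msh3+/- and wild type the sexes overlapped. How many of all genes separate the sexes in groups of this size was not computed. Tnnt2 was 0.21 higher in males on the log2 scale (SE 0.08, adjusted p = 0.133), and the other members lay between -0.03 and 0.36 with none called. The effect of Q140 in males minus that in females, over the 33 libraries with an Msh3 mutant label, was not called for any of the 6 members tested there, nor for any of the 19481 genes (0% called, with 1531 genes at an unadjusted p under 0.05). Wt1 had too few reads in those libraries to be tested.

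**Figure D3:**
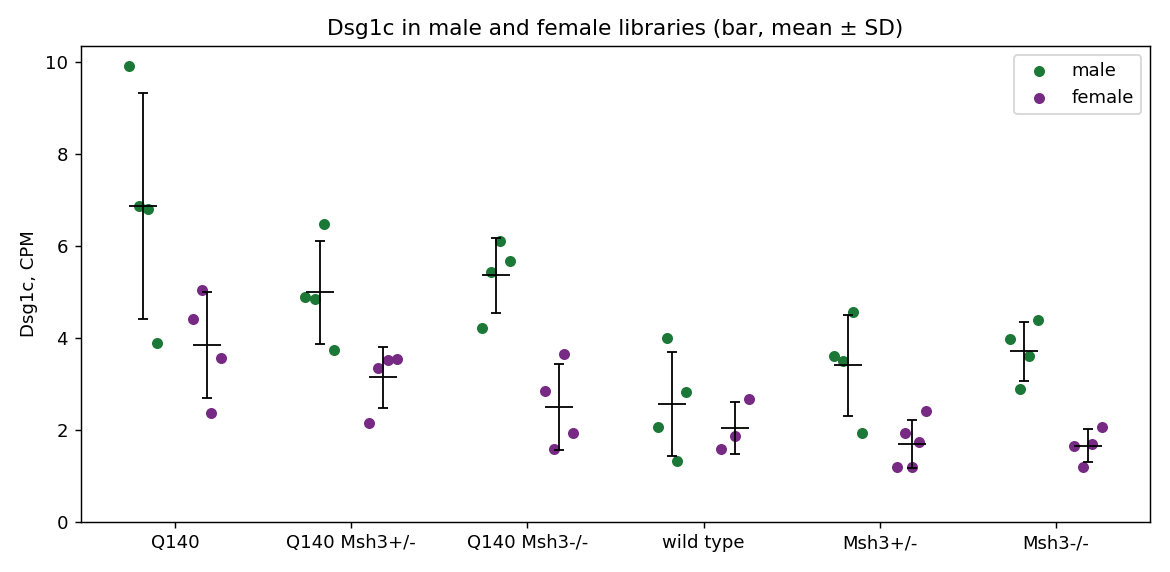
Dsg1c in CPM (vertical axis) in male and female libraries of each group, with the mean and SD. Male means exceed female means in every group, and in Q140 Msh3+/-, Q140 Msh3-/- and Msh3-/- the sexes do not overlap.

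Ccl28 was the most variable of the 6 better expressed genes in the Q140-free groups, with a coefficient of variation of 50.4% to 53%. It ran from 1.79 to 4.76 CPM in Q140 with a median of 3.23, against 0.381 to 2.24 CPM in wild type with a median of 1.56. Q140 Msh3+/- ran from 0.84 to 4.68 CPM with a median of 1.79, against 0.813 to 4.04 CPM in Msh3+/- with a median of 1.67. Q140 Msh3-/- ran from 0.879 to 3.84 CPM with a median of 1.95, against 0.598 to 3.15 CPM in Msh3-/- with a median of 1.87. In Q140, 7 of 8 libraries were above the highest wild type library, while on the mutant backgrounds the ranges overlapped over most of their length. The log2 fold change was 1.27 (SE 0.36) in Q140 over wild type, 0.07 (SE 0.34, adjusted p = 0.95) in Q140 Msh3+/- over Msh3+/- and 0.35 (SE 0.35, adjusted p = 0.896) in Q140 Msh3-/- over Msh3-/-. The 95% intervals on the mutant backgrounds, -0.61 to 0.75 and -0.35 to 1.04, hold values of either sign.

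**Figure D4:**
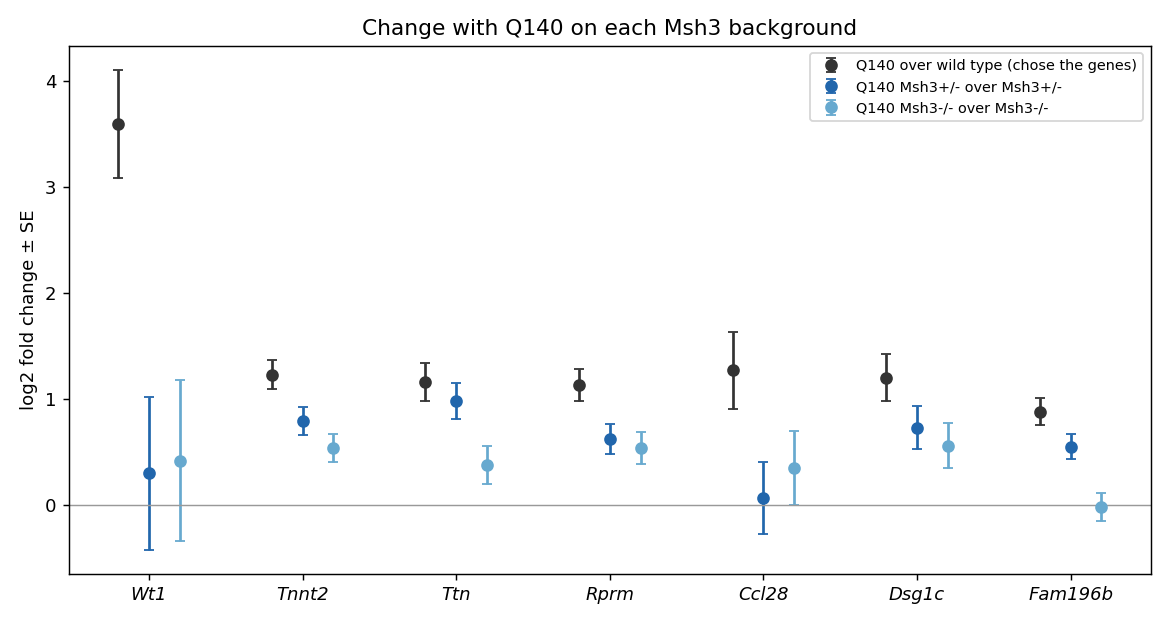
Log2 fold change with its SE (vertical axis) for each gene with Q140 on 3 Msh3 backgrounds. The Q140 over wild type values chose the genes. Wt1 stands at 3.59 there and at 0.30 and 0.42 on the mutant backgrounds, and Fam196b stands at -0.02 in Q140 Msh3-/- over Msh3-/-.

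No member was called between Msh3 genotypes. In Msh3-/- against Msh3+/- none of the members with enough reads was called, where 0.015% of all genes were. The log2 fold changes ran from -0.18 (Rprm, SE 0.15) to 0.27 (Fam196b, SE 0.12). In Q140 Msh3-/- against Q140 Msh3+/- none was called either, again with 0.015% of all genes, and the values ran from -0.57 for Ttn to 0.19 for Ccl28. The Q140 effect on Msh3-/- minus that on Msh3+/- was called for no gene in the table (0% by edgeR, with 1220 genes at an unadjusted p under 0.05). Wt1 had too few reads in these groups for a test to be read, so its lack of a call carries no information. Relative to the Q140 group, all 7 were lower in both groups with an Msh3 mutation, with a median log2 fold change of -0.38 in Q140 Msh3+/- over Q140 and -0.67 in Q140 Msh3-/- over Q140, beside -0.01 for all genes in each. These comparisons share the Q140 libraries used to choose the genes, so their direction is fixed in part by that choice. For the members other than Wt1 the values ran from -0.21 (Ttn) to -0.68 (Ccl28) in Q140 Msh3+/- over Q140, and from -0.48 (Dsg1c) to -0.85 (Rprm) in Q140 Msh3-/- over Q140.

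Relations between the members were read within the Q140-carrying groups. Each library's log2 CPM was taken as a deviation from the mean of its group and sex, which removes the differences between groups, over the 24 Q140, Q140 Msh3+/- and Q140 Msh3-/- libraries. All 21 pairs of members had a Pearson r above 0, from 0.04 to 0.67 with a median of 0.40. Between a member and the 19956 genes that are neither members nor markers, 48.3% to 51.9% of r values were above 0 and 5.34% to 11.2% were at least 0.40, depending on the member. A pair of relations, both of Wt1, changed sign without the 2 libraries farthest from the median of Wt1. Wt1 with Ccl28 had r = 0.04 and rho = -0.08, and r was -0.10 without the 2 farthest libraries. Wt1 with Tnnt2 had r = 0.21 and rho = 0.06, and r was -0.01 without the 2 farthest libraries. By permutation within groups, 10 of the 21 pairs passed an adjusted p of 0.05 over the 28 relations computed. The permutation crossed the sexes, unlike the deviations, so p-values may be too small. Tnnt2 with Ccl28 (adjusted p = 0.0476 by permutation) and Tnnt2 with Fam196b (0.0478) passed narrowly. The Q140 libraries among the 24 were used in the choice of the members. Wt1 had enough reads for testing only through them, so its relations are read as a description. Those of Wt1 with Dsg1c, Fam196b and the medium spiny neuron markers are nevertheless among the relations counted as passing. The 28 include 7 with medium spiny neuron markers. All 7 genes had an r below 0 with those markers, as had 51.1% of the 19956 other genes, and 4 of these relations passed. A lower r than that of Dsg1c, Fam196b, Wt1 and Rprm was found in 0.0301%, 0.0952%, 0.185% and 4.47% of those genes. Dsg1c had r = -0.84 and rho = -0.76 (permutation p = 1e-05, the smallest that 100000 resamples can give, adjusted p = 0.00028). Fam196b had r = -0.81 and rho = -0.77 (permutation p = 4e-05, adjusted p = 0.000373). Rprm had r = -0.58 and rho = -0.67 (permutation p = 3e-05, adjusted p = 0.000373). Wt1 had r = -0.79 and rho = -0.59, with r at -0.92 in the Q140 group, -0.31 in Q140 Msh3+/- and -0.42 in Q140 Msh3-/-. Without the 2 libraries farthest from the median, r was -0.75 for Dsg1c, -0.73 for Fam196b, -0.60 for Wt1 and -0.55 for Rprm. By rank correlation 8 of the 28 relations passed.

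**Figure D5:**
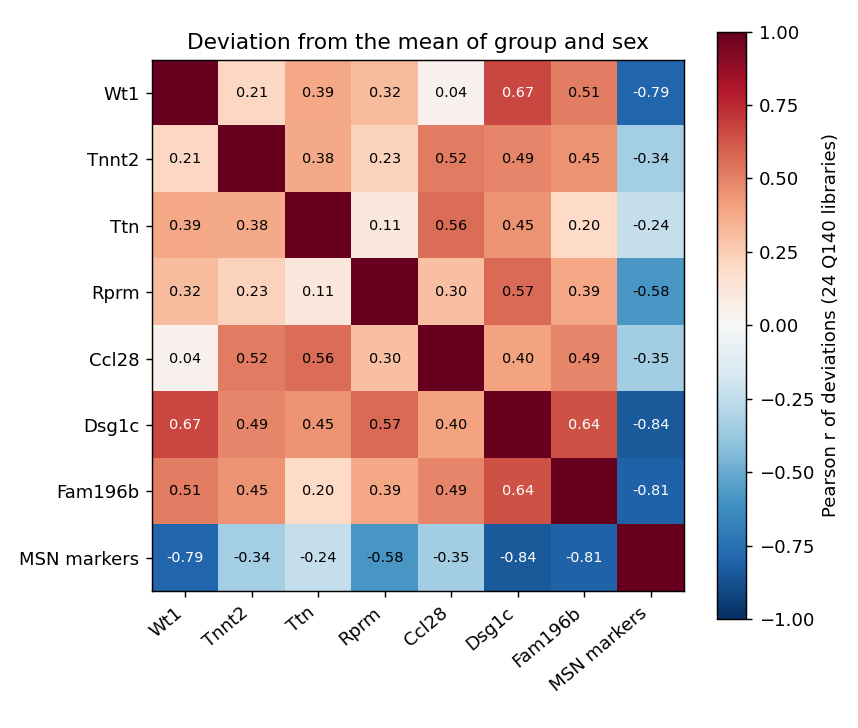
Pearson r between deviations from the mean of group and sex, for the 7 genes and the mean of the medium spiny neuron (MSN) markers, over 24 libraries with Q140; colour runs from -1 to 1. All cells between members are above 0, and the marker row is below 0 throughout.

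The closest pair was Wt1 and Dsg1c, with r = 0.67 and rho = 0.57 as a description, and r = 0.50 without the 2 farthest libraries. Within the Q140 group alone their r was 0.94, against 0.28 in Q140 Msh3+/- and 0.26 in Q140 Msh3-/-, given as values with no test of the difference. Dsg1c and Fam196b followed with r = 0.64 and rho = 0.52 (permutation p = 0.00114, adjusted p = 0.00532), and r = 0.50 without the 2 farthest libraries. Ttn and Ccl28 had r = 0.56 and rho = 0.61 (permutation p = 0.00395, adjusted p = 0.0138), and r = 0.54 without the 2 farthest libraries. Fewer relations passed without the Q140 group. In the 16 libraries of Q140 Msh3+/- and Q140 Msh3-/- alone, 4 of 28 relations passed: Ttn with Ccl28 (r = 0.80) and the marker relations of Rprm (r = -0.80), Fam196b (r = -0.77) and Dsg1c (r = -0.71). Wt1, with 1 to 8 reads in these libraries, had an r of -0.15 with Ccl28 and of -0.36 with the markers (adjusted p = 0.325). Ttn with Rprm had an r of -0.01 there. Members and markers were read from the same libraries and share their scaling.

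The genes most like each member were taken as those with the highest Pearson r of log2 CPM over all 48 libraries. Candidates were 13311 genes of at least 0 average log2 CPM, with members and clone-type names left out. This r is a description that includes the differences between groups. For Wt1 they included Cbx8 (r = 0.86) and Sfmbt2 (0.80). Cbx8 is a subunit of Polycomb repressive complex 1, and Sfmbt2 is a Polycomb group protein. Cbx8 had a median of 12.9 CPM in Q140, against 8.74 in Q140 Msh3+/-, 7.56 in Q140 Msh3-/- and 7.88 in wild type. Sfmbt2 had a median of 8.24 CPM in Q140, against 4.14 in Q140 Msh3+/-, 3.22 in Q140 Msh3-/- and 3.16 in wild type. Sfmbt2 rose in Q140 Msh3+/- over Msh3+/- (log2 fold change 0.49, adjusted p = 0.0243 by edgeR), while Cbx8 (0.18, adjusted p = 0.215) did not pass.

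Tnnt2 was most like Adamts6 (r = 0.88), Hook2 (0.87) and Wiz (0.86), and Rprm most like Cnrip1 (0.87), Gsto1 (0.86) and Gprasp2 (0.85). For Ttn they were Sestd1 (0.81), Pcdhb3 (0.80) and Htr2c (0.80), for Dsg1c Gpr149 (0.75), Spc24 (0.75) and Hook2 (0.74), and for Fam196b Kndc1 (0.83), Nelfb (0.83) and Sfmbt2 (0.83). Htr2c, the serotonin 2C receptor, is the one gene of these that rose both in Q140 Msh3+/- over Msh3+/- (log2 fold change 0.45, adjusted p = 2.65e-05 by edgeR) and in Q140 Msh3-/- over Msh3-/- (0.40, adjusted p = 0.00686).

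Ccl28 was most like its neighbour Tmem267 (r = 0.83, and 0.76 between deviations from group and sex means), which ends 12.8 kb before Ccl28 begins. The next were Slc2a3 (0.73) and Slc6a15 (0.66). Tmem267 had a median of 2.35 CPM in Q140 and 1.58 CPM in wild type. Its highest library in Q140 Msh3+/-, at 4.7 CPM, was M3, which was also the highest for Ccl28 at 4.68 CPM. Like Ccl28, Tmem267 did not pass on the mutant backgrounds (log2 fold change 0.14, adjusted p = 0.832 in Q140 Msh3+/- over Msh3+/- and 0.27, adjusted p = 0.894 in Q140 Msh3-/- over Msh3-/-, by edgeR).

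Of the 29 nearest tested neighbours of the 7 genes, 3 were called in Q140 Msh3+/- over Msh3+/- (6.45% of all genes were) and none in Q140 Msh3-/- over Msh3-/- (0.0751%), and 2 of the 3 calls were lost without the 2 libraries that stood apart. Sestd1, 198 kb from Ttn, rose by a log2 fold change of 0.15 (SE 0.03, adjusted p = 0.00191 by edgeR), and by 0.18 (adjusted p = 0.000512) without the 2 libraries that stood apart. Dsg2, 273 kb from Dsg1c and also a desmoglein, was at 0.96 (SE 0.28, adjusted p = 0.027), but at 0.76 (SE 0.29, adjusted p = 0.13) without them. Ttr, the choroid plexus gene for transthyretin, was at 4.74 (SE 1.21, adjusted p = 0.011), with 3950 CPM in Q140 Msh3+/- F1, and at -0.58 (SE 0.78, adjusted p = 0.786) without them. The immediate neighbours of Tnnt2 include Tnni1, the slow skeletal troponin I, at 0.01 (SE 0.24, adjusted p = 0.991), and Lad1 at 0.13 (SE 0.11, adjusted p = 0.569). Those of Wt1 included Pax6 and Rcn1, at -0.01 and 0.01.

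Genes of the pathways in which the members are known to act were called in both directions. Over 7 lists, 101 genes were tested in Q140 Msh3+/- against Msh3+/-, of which 3 rose and 8 fell, 10.9% beside 6.45% of all genes. Without the 2 libraries that stood apart, 4 rose and 8 fell, with 8 of the calls shared, beside 5.2% of all genes. In Q140 against wild type 8 of the 101 were higher and 24 lower at an adjusted p under 0.05, 31.7% beside 19.9% of all genes. There the sarcomere list had 1 higher and 7 lower of 21, chemokines 0 and 5 of 19, growth arrest 2 and 4 of 22, and inhibitory postsynapse 1 and 5 of 13.

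Of 33 other sarcomere genes listed, 21 were tested in Q140 Msh3+/- against Msh3+/-, of which 1 rose and 2 fell, with a median log2 fold change of -0.09. The one that rose was Ldb3 (0.27, adjusted p = 0.000786), a Z-disc protein, and the ones that fell were Myh7 (-0.43, adjusted p = 0.00211), the slow myosin heavy chain, and Acta1 (-0.31, adjusted p = 0.0409, or 0.0531 without the 2 libraries that stood apart), skeletal actin. Among the markers of skeletal and cardiac muscle, Acta1 was at 2.16 to 4.15 CPM in every library, and Ckm, Mb and Nppa stayed at or below 0.203 CPM. The summed muscle markers, 9 of 9 in the table and mostly Acta1, ran from 2.86 to 3.51 CPM in Q140 and 2.73 to 3.9 in Q140 Msh3+/-, against 3.09 to 4.51 in wild type and 2.98 to 4.68 in Msh3+/-. Their part in the levels of Tnnt2 and Ttn was not tested.

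Of 15 desmosome genes, 8 were tested and only Dsg2 was called, with the dependence on 2 libraries given above. Desmoplakin, Dsp, was at 1.20 (SE 0.39, adjusted p = 0.0559), and at 0.16 (adjusted p = 0.856) without those libraries. Keratins of stratified epithelium were all but absent, with Krt5 at 0 in 47 of 48 libraries and Krt14 at 0 in 45. Of the other epithelial markers, Krt8, Krt18 and Cdh1 reached 2.28, 5.87 and 1.28 CPM, and Epcam at most 0.255 CPM. The summed epithelial markers were highest in Q140 Msh3+/- F1, at 9.68 CPM, against a median of 0.373 CPM over the 48 libraries. Of 40 chemokines and receptors, 19 were tested and 1 fell, Cx3cl1 (-0.20, adjusted p = 0.00914), a neuronal chemokine. Ccr10, a receptor of Ccl28, had too few reads to be tested.

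Of 23 growth arrest genes, 22 were tested and 1 fell, Ccng2 (-0.14, adjusted p = 0.0119), a cyclin of arrested cells. Without the 2 libraries 3 fell, with Cdkn1a, the p21 inhibitor of cyclin-dependent kinases (-0.41, adjusted p = 0.0224), and Sfn, a 14-3-3 protein (-0.41, adjusted p = 0.0214). With them Cdkn1a was at -0.14 (adjusted p = 0.68) and Sfn at -0.31 (adjusted p = 0.132). Of 13 inhibitory postsynapse genes tested, none rose and 2 fell, Mdga2 (-0.19, adjusted p = 0.00469), a synaptic adhesion regulator, and Clptm1 (-0.11, adjusted p = 0.0451, or 0.0605 without the 2 libraries), which limits GABA-A receptor delivery. Without the 2 libraries Slitrk3, an adhesion protein of inhibitory synapses, rose (0.14, adjusted p = 0.0196), against 0.09 (adjusted p = 0.171) with them. Among 18 partners and targets of Wt1, 12 were tested and 1 fell, Wnt4 (-0.95, adjusted p = 0.000133), a signal of the developing kidney and gonad. Without the 2 libraries Basp1, a corepressor of Wt1, rose (0.21, adjusted p = 0.00312), against 0.13 (adjusted p = 0.149) with them. Of 11 podocyte and mesothelial genes, where Wt1 is known to be active, 6 were tested, and Ptpro rose (0.19, adjusted p = 0.00442) while Synpo fell (-0.18, adjusted p = 0.0104). Both are also expressed in neurons. No gene of any of these lists was called in Q140 Msh3-/- over Msh3-/-, by edgeR. Median changes of the lists in Q140 Msh3+/- over Msh3+/- lay between -0.18 and 0.30, beside 0.62 for the 7 members.

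Markers of other cell types were compared by their summed levels. Astrocyte markers summed to 691 to 820 CPM in Q140, against 811 to 926 in wild type, and microglial markers to 200 to 259 CPM, against 247 to 318. Endothelial markers ran from 109 to 163 CPM in Q140, against 135 to 182 in wild type, and meningeal fibroblast markers from 30.4 to 43.7 CPM, against 37.9 to 63.3. Smooth muscle and mural cell markers ran from 127 to 147 CPM in Q140, against 147 to 177 in wild type. In each of these 5 lists both the lowest and the highest Q140 library were below those of wild type. Oligodendrocyte markers ran from 3730 to 5440 CPM in Q140, against 3760 to 5640 in wild type, and cortical neuron markers from 45.4 to 65.3 CPM, against 39.8 to 90.4. Epithelial markers stayed between 0.199 and 0.655 CPM in Q140, against 0.168 to 1.63 in wild type. Choroid plexus markers ran from 33.4 to 76.4 CPM in Q140, against 26.3 to 638 in wild type, where the highest library was M2. The part of these markers in the levels of the 7 genes was not tested.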

How the data were processed

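RNA of the striatum was extracted with a Qiagen RNeasy kit and made into libraries with a stranded Illumina TruSeq protocol, per the labels' protocols. The deposited count table holds whole-number read counts per gene, made by the authors with no scaling. The deposited FPKM table holds the authors' values scaled by gene length and library total. Per the submitters' processing notes, STAR 2.7.5c, SAMtools 1.10, HTSeq 0.12.3 and the builds GRCm38 and mm10 were used; the annotation release, strand setting and gene length are not given in the sources used here. Because strand use in counting is not given, antisense overlaps cannot be resolved.

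The analysis started from the counts, modelled in edgeR 4.0.16 (R 4.3.3) after filterByExpr (minimum count 10, minimum total 15), with TMM factors (0.956 to 1.09), a robust quasi-likelihood fit of group means with sex as covariate over all 48 libraries, two-sided tests, and Benjamini-Hochberg adjustment over 19975 genes. SE is the log2 fold change divided by the root of F. CPM used TMM-scaled library sizes. FPKM served only to order levels between genes. Genes not tested held 0.0383% of the counts, and the biological coefficient of variation was 10.3%. The floor for 0 reads is 3 counts, and it covers counting error only. The code was tested on simulated data. Correlations used 100000 permutations within groups, across the sexes.

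The members and lists were chosen with earlier results of these data known. Named genes are the 7 members, and per list up to 3 called genes by smallest p. Per member, the 3 non-member genes with the highest r were named, of at least 0 average log2 CPM and no clone-type name. The genes ranked beside the members, neighbours, Dsg1a, Dsg1b, Dsp, Cdkn1a, Sfn, Slitrk3, Basp1, Ccr10 and marker genes were named after their values were seen. Alternatives were DESeq2 1.42.0, limma 3.58.1, other scalings, filters and covariates, the replicate block, fewer groups and leaving out each library. Replicate numbers do not pair libraries: the median r of deviations between same-numbered libraries was -0.03 over 115 pairs. Results on a few genes that the rule names are left out.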

Additional observations from a re-analysis of the deposited data

Results flagged for a closer look

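Among 42 combinations of a gene and a group, 2 had a library far from the others of its group; chance flags about 1 in 20. Ccl28 stood at 4.68 CPM in Q140 Msh3+/- M3, with the next library of that group at 2.64 CPM. The neighbouring gene Tmem267 was also highest there. Fam196b stood at 2.86 CPM in wild type F3, with the next library of that group at 4.6 CPM.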

How the results depend on the processing

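Of 1589 member values under alternative settings, 1541 kept their direction and their side of the threshold, 3 lost a call, 2 gained one and 43 changed sign, all of these uncalled. The counts of genes called moved as follows. For Q140 Msh3+/- against Msh3+/- (1289 genes), library totals in place of TMM gave 2209. For Q140 Msh3-/- against Msh3-/- (15 genes), DESeq2 gave 26, only the groups compared 23, no count filter 9, no sex covariate 9 and plate column 8. For Q140 Msh3-/- against Q140 Msh3+/- (3 genes), DESeq2 gave 25 and the 33 Msh3 mutant libraries 5. The difference of Q140 effects (0 genes) gave 1 with those 33 libraries and 1 with only the groups compared. Leaving out 1 library gave 980 to 1366, 5 to 17, 3 to 6, 2 to 3 for Msh3-/- against Msh3+/-, 0 to 0 for the difference of effects and 436 to 726 for male against female. With plate column as covariate, uncalled values near 0 changed sign for Wt1 in Q140 Msh3-/- against Q140 Msh3+/- (-0.16) and in the difference of effects (-0.13), for Ttn in Msh3-/- against Msh3+/- (-0.01) and for Fam196b between the sexes (-0.04). The last was -0.05 in the 33 libraries and -0.01 without the 2 libraries named below. Leaving out 1 library also changed the sign of log2 values between the sexes for Fam196b (-0.02 to 0.03) and Wt1 (-0.12 to 0.18), of Ccl28 in Q140 Msh3+/- against Msh3+/- (-0.17 to 0.33), of Wt1 in Q140 Msh3-/- against Q140 Msh3+/- (-0.34 to 0.33) and in the difference of effects (-0.28 to 0.49), and of Fam196b in Q140 Msh3-/- against Msh3-/- (-0.08 to 0.04). In Msh3-/- against Msh3+/- the ranges were -0.44 to 0.18 for Wt1, -0.10 to 0.14 for Ttn, -0.20 to 0.17 for Ccl28 and -0.01 to 0.16 for Dsg1c. Relations between members within groups (14 called) fell to 4 without the Q140 group. The cause was not tested. With the replicate block (sex and number), which the labels do not tie to animals, 1006 genes were called in Q140 Msh3+/- against Msh3+/- and no member call changed. Leaving out both libraries with the highest cortical and choroid plexus markers, an alternative chosen after seeing the data, gave 1037 there, and the same 5 members were called. Leaving out wild type M1 and M2, likewise chosen, changed no member call.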
